A study of Mus musculus with 10 samples.

Results

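The type II hair shaft keratins, the 6 genes sought here on 10 arrays of newborn mouse epidermis, are Krt81, Krt82, Krt83, Krt84, Krt85 and Krt86. A gene was taken up where a probe set (the group of probes that measures 1 transcript) carried its symbol and no other in the platform annotation. Of these 6 genes, 3 were found in this way: Krt82 (probe set 10432723), Krt84 (probe set 10432711) and Krt86 (probe set 10427070), each with 1 probe set out of 35556 on the array. Krt81, Krt83 and Krt85 had no such probe set and were not analysed here. Results on type II hair keratins are therefore those of 3 genes.

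RNA came from epidermis that had been lifted off with dispase from the skin of mice aged 3 days, with 1 GeneChip Mouse Gene 1.0 ST array per mouse. The 5 ILK-deficient mice carried the KRT14-cre transgene, Tg(KRT14-cre)1Amc/J, called heterozygous in the labels and hemizygous in the methods, and were homozygous for the floxed Ilk allele Ilktm1Star (K14Cre; Ilk f/f). The 5 ILK-expressing mice carried the same transgene and were heterozygous for that allele (K14Cre; Ilk f/+). Both genotypes thus expressed Cre under the keratin 14 promoter, which is active in basal keratinocytes and hence in the cells from which follicles arise, and the ILK-expressing mice had 1 floxed allele. Mice without Cre were not analysed here.

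Hair keratins build the intermediate filaments of the hair shaft. A type II (basic) keratin pairs with a type I (acidic) keratin, and both are made as cells leave the hair matrix at the base of the follicle and move up into the cortex or the cuticle of the shaft. In human hair, K86 is a cortex keratin, mutated in the beaded hair disorder monilethrix, and K82 is a keratin of the cuticle. K84, in humans, is known from the filiform papillae of the tongue rather than from scalp hair. In newborn mice the follicles are still growing down and forming their first shafts.

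The stretch upstream of the start site is shown for the 2 members that have a window in the RefSeq promoter table (build GRCm38.p6), because these neighbouring genes share a run of bases there. The windows are the 250 bases before the start, on the minus strand, at chr15:101550660-101550909 for Krt82 and chr15:101532821-101533070 for Krt84. Capitals mark the longest run that both windows share, CCCAAGCTCATAAA, and a TATA-like run, ATAAAAG, nearer the start.
Krt82: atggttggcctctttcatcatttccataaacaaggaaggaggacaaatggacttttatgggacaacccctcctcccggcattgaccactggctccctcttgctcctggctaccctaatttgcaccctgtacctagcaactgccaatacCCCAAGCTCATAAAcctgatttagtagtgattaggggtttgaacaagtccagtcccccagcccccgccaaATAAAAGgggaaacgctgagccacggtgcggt
Krt84: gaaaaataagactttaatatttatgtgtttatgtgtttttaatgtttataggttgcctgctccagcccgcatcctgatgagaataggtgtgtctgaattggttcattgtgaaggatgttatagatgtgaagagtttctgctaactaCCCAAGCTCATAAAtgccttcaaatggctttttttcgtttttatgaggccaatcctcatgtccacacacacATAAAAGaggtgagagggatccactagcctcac

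Counted from the start site, with -1 as the base before it, the shared run of 14 bases began at -102 in Krt82 and at -104 in Krt84. The TATA-like run began at -32 in Krt82 and at -33 in Krt84, and Krt82 held its letters once more on the opposite strand, from -199. Searched on both strands of the same 250 bases in all 32851 windows of the table, CCCAAGCTCATAAA was present in 2 windows (0.00609%). These are the windows of Krt82 and Krt84, from which the run was taken. The last 8 bases of the run, CTCATAAA, were present in 266 windows (0.81%). Among them were 3 of 7 windows of type I hair keratins (Krt32, Krt33b and Krt39). None of 7 windows of inner root sheath keratins held these 8 bases, and none of 9 windows of type II keratins of other layers. Krt84 held these 8 bases once more on the opposite strand, from -65. ATAAAAG was present in 4.83% of all windows. The run was looked for after the values were known, and a match of letters is a description of the window only.

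Values are log2 expression values as deposited, already background-adjusted and quantile-normalized between arrays. An array's median lay between 7.07 and 7.17. Testing was limited to probe sets that reached 50 on the linear scale, or 5.64 on the log2 scale, on at least 5 arrays, which kept 32046 of them. The 3 hair keratins exceeded this value on all 10 arrays. Ilk itself ranged over 8.75 to 9.07 in ILK-deficient and 9.01 to 9.38 in ILK-expressing arrays, with overlap, and was not called (log2 fold change -0.23, adjusted p = 0.253 from limma). Which of its probes lie in the deleted part was not tested, so this probe set does not check the genotype labels. The paper, reading its arrays exon by exon, reports similar signal for the first Ilk exons in both genotypes. For exons of the deleted part it reports substantially lower signal in ILK-deficient epidermis, and on immunoblots little ILK protein there. The sample descriptions begin with a letter whose meaning the labels do not give. It is D for 4 ILK-deficient and 3 ILK-expressing arrays, D' for ILK-deficient replicate 5 and ILK-expressing replicate 4, and C' for ILK-expressing replicate 5.

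Krt86, whose human counterpart is a cortex keratin, showed the largest fall of the 3 genes. Its log2 value was 6.88, 7.03, 7.04, 7.22 and 6.73 in ILK-deficient replicates 1 to 5. It was 8.05, 8.86, 9.43, 11.56 and 11.51 in ILK-expressing replicates 1 to 5. The genotypes did not overlap. The ILK-deficient arrays lay within 0.50 of each other, whereas the ILK-expressing arrays spanned 3.51, with replicates 4 and 5 far above the other 3. Over 5 arrays each, ILK-deficient mice averaged 6.98 ± 0.186 (SD) and ILK-expressing mice 9.88 ± 1.59 (SD). Krt86 was thus 7.48-fold lower in ILK-deficient epidermis (log2 fold change -2.90, 95% interval -4.28 to -1.52, with a limma adjusted p = 0.0306).

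Krt82, whose human counterpart is a cuticle keratin, fell as well. Its log2 value was 7.40, 7.43, 7.46, 7.61 and 7.26 in ILK-deficient replicates 1 to 5. In ILK-expressing replicates 1 to 5 it was 8.48, 9.46, 8.12, 10.92 and 10.36. Again the genotypes did not overlap, the ILK-deficient arrays were close together and ILK-expressing replicates 4 and 5 were the highest. Over 5 arrays each, ILK-deficient mice averaged 7.43 ± 0.126 (SD) and ILK-expressing mice 9.47 ± 1.20 (SD). Krt82 was 4.10-fold lower in ILK-deficient epidermis (log2 fold change -2.03, standard error 0.469, with a limma adjusted p = 0.0402).

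Krt84 stayed near the lower limit of the tested range on 8 of the 10 arrays, with linear values of 54.6 to 60.3. Its log2 value was 5.84, 5.78, 5.77, 5.82 and 5.85 in ILK-deficient replicates 1 to 5. It was 5.86, 5.92, 5.87, 6.59 and 6.07 in ILK-expressing replicates 1 to 5. Only ILK-expressing replicate 4, and less so replicate 5, stood clear of the ILK-deficient arrays, although the genotypes did not overlap. Over 5 arrays each, ILK-deficient mice averaged 5.81 ± 0.0358 (SD) and ILK-expressing mice 6.06 ± 0.308 (SD). The difference of -0.25 (95% interval -0.54 to 0.03) did not pass the test (limma adjusted p = 0.392).

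**Figure D1:**
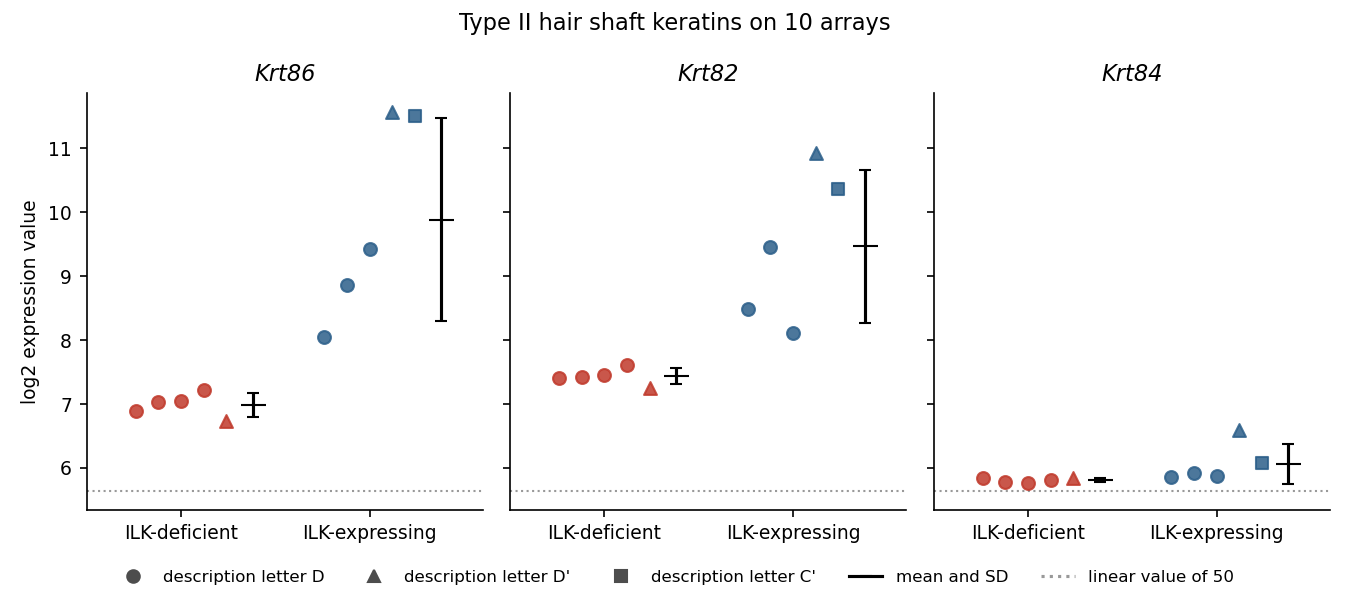
Log2 expression values of Krt86, Krt82 and Krt84 (vertical axis) on 5 ILK-deficient (left) and 5 ILK-expressing (right) arrays, 1 point per array in replicate order, each genotype's mean and SD beside the points, the letter of the sample description as the shape of the point, and a dotted line at a linear value of 50. The ILK-deficient points of Krt86 lie between 6.73 and 7.22, all below the ILK-expressing points at 8.05 to 11.56, and the highest ILK-expressing points are those with the letters D' and C'.

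Of the 3 type II hair keratins, 2 were thus called lower and none higher in ILK-deficient epidermis, where 0.97% of all tested probe sets were called lower, 2.81% higher and 3.78% in either direction. The same 2 genes fell by 1 or more on the log2 scale, as did 0.543% of tested probe sets. All 3 had every ILK-deficient array below every ILK-expressing array, as did 1.96% of tested probe sets. For each, an exact permutation test over the arrays gave p = 0.00794 (two-sided, n = 5 in each genotype), the smallest that 5 arrays against 5 can give. In RNA of the bulk epidermis, fewer hair shaft cells and less keratin RNA per cell cannot be told apart. Whether the arrays compress differences of a transcript as low as Krt84 was not tested.

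The calls of Krt86 and Krt82 were close to the threshold. Krt86 was no longer called without any 1 of the ILK-deficient arrays (adjusted p = 0.0582 to 0.0793 from limma) or without ILK-expressing replicate 3 (0.0519) or 4 (0.0593). Krt82 was no longer called without any 1 of the ILK-deficient arrays (adjusted p = 0.0732 to 0.0991) or without ILK-expressing replicate 2 (0.081), 4 (0.0637) or 5 (0.0752). The direction held for both genes in each of these fits, as it had to, since their genotypes did not overlap.

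Among the arrays whose description begins with D, 4 ILK-deficient and 3 ILK-expressing, the falls were smaller. Krt86 averaged 7.05 ± 0.139 (SD) in the 4 ILK-deficient and 8.78 ± 0.691 (SD) in the 3 ILK-expressing mice, a difference of -1.74 (limma adjusted p = 0.0389). Krt82 averaged 7.48 ± 0.0926 (SD) in the ILK-deficient and 8.69 ± 0.696 (SD) in the ILK-expressing mice, a difference of -1.21 (limma adjusted p = 0.115). Krt84 had a log2 fold change of -0.08 (adjusted p = 0.768). The exact permutation test of these 7 arrays gave p = 0.0286 for Krt86 and for Krt82, the smallest it can give here, and p = 0.0571 for Krt84 (two-sided). For all 3 genes the genotypes did not overlap among these arrays either. This had to be so, since they did not overlap over the full set of arrays, and it is no further result. The pair of arrays with D', ILK-deficient replicate 5 and ILK-expressing replicate 4, differed more, by -4.83 for Krt86, -3.66 for Krt82 and -0.74 for Krt84 on the log2 scale. The letter C' stood on 1 ILK-expressing array only, so no difference could be taken within it.

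Krt86 and Krt82 could be set against each other, but neither could be set firmly against Krt84, which lay near the lower limit of the tested range in both genotypes. The 3 pairs were compared by the difference of their log2 values within each array, so that a shift of a whole array cancels. Their 95% t intervals assume equal spread in both genotypes. These genes did not have it, so the intervals may be too narrow. The log2 fold change of Krt86 lay below that of Krt84 by 2.65 (Krt84 minus Krt86, 95% interval 1.23 to 4.07; exact permutation test, two-sided, n = 5 in each genotype, p = 0.00794, and 0.0119 adjusted over the 3 pairs). That of Krt82 lay below that of Krt84, with a difference of -1.78 (Krt82 minus Krt84, 95% interval -2.78 to -0.79; exact permutation test, p = 0.00794, adjusted p = 0.0119). Between Krt82 and Krt86 the difference was 0.87 (95% interval -0.05 to 1.78), and it was not separated from the spread between arrays (exact permutation test, p = 0.143). Without ILK-expressing replicate 1 this last difference was 1.08 (exact permutation test, adjusted p = 0.0476), and without replicate 2 it was 1.12 (adjusted p = 0.0317). Of 10 fits that each left out 1 array, only these 2 had an adjusted p under 0.05. In the others it was 0.143 to 0.159 by the same test. Among the arrays with D, the difference was -1.13 for Krt82 minus Krt84 and 1.65 for Krt84 minus Krt86 (exact permutation test, adjusted p = 0.0429 for both). For Krt82 minus Krt86 it was 0.53 there (exact permutation test, adjusted p = 0.457). With Krt84 so low, both differences from Krt84 largely repeat the falls of Krt86 and Krt82 themselves. They do not show that Krt84 responded less.

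The symbol Krt83 has changed its meaning. Krt83 is listed in RefSeq both as a gene of its own and as an older name of Krt87, and the array holds a probe set for Krt87. Krt87, chosen here after its values were seen and not counted among the members, averaged 7.13 ± 0.241 (SD) in the 5 ILK-deficient and 9.61 ± 1.07 (SD) in the 5 ILK-expressing mice. It was 5.58-fold lower in ILK-deficient epidermis (limma adjusted p = 0.013), and it too was highest in ILK-expressing replicates 4 and 5. Hair keratin genes are close relatives, and how far their probes also bind transcripts of other members was not tested.

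Of the members, Krt81, Krt86, Krt83, Krt84 and Krt82 lie side by side in the type II keratin cluster of chromosome 15. Krt85 is not among the keratin genes placed there in the annotation used. The neighbours of these members on the chromosome were set beside them. Genes that were called lower stood between genes that were not called. Krt88, listed between Krt87 and Krt81, was at -0.06 (adjusted p = 0.847 from limma), and Krt90, next to Krt82, at -0.03 (adjusted p = 0.935). Krt75, a keratin of the companion layer around the inner root sheath and the next gene after Krt90, fell by 1.82 (adjusted p = 0.0295). Krt7, a keratin of simple epithelia, was at 0.06 and Krt5, the type II keratin of basal keratinocytes, at -0.08 (adjusted p = 0.794 and 0.601). Of 27 keratin genes named in the cluster, 24 were tested, and 7 were lower and none higher in ILK-deficient epidermis.

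**Figure D2:**
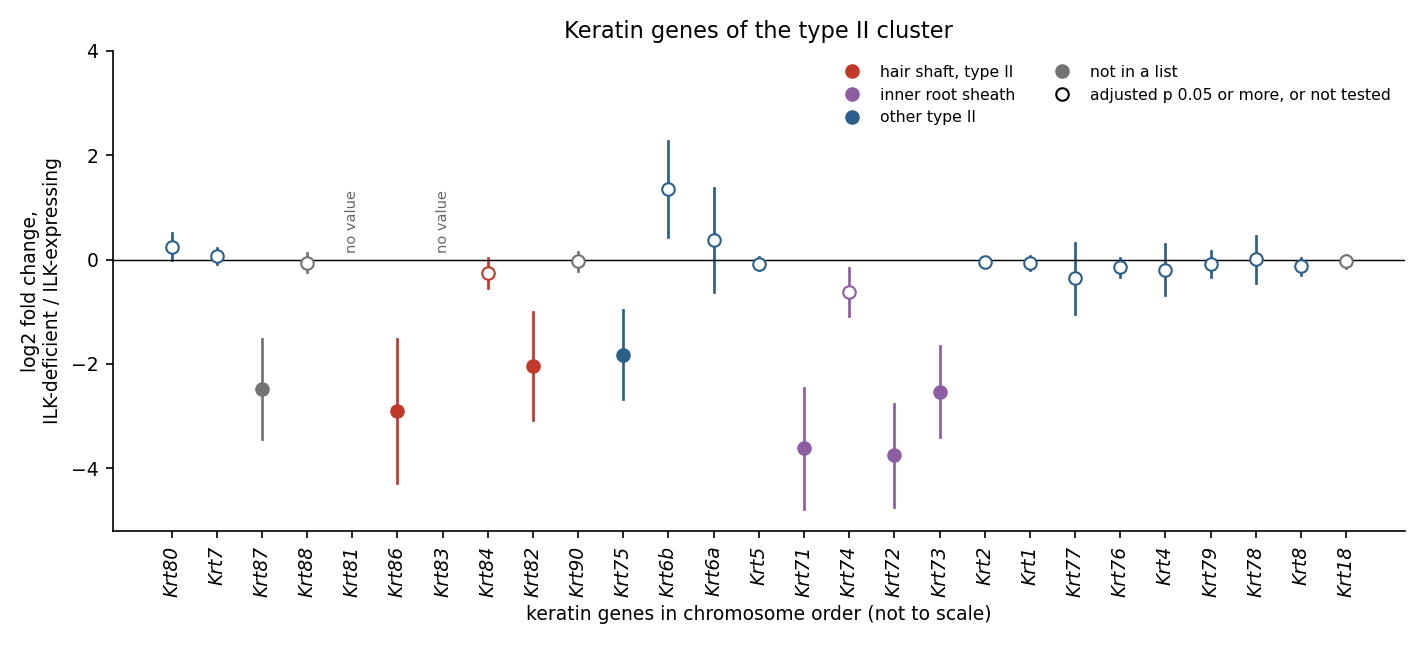
Log2 fold change with its 95% interval from limma (vertical axis) for keratin genes in their order along the cluster (horizontal axis, not to scale), the points being filled where the adjusted p was under 0.05. Krt86 at -2.90 and Krt82 at -2.03 stand on either side of Krt84 at -0.25, while Krt88 and Krt90 lie near 0. Krt81 and Krt83 have no value, and Krt85 is not shown.

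The type I hair keratins, with which the type II keratins pair, showed the same direction. Among 9 of them, 5 fell and none rose in ILK-deficient epidermis, with a median log2 fold change of -1.54, against -2.03 for the 3 type II genes and 0.01 for the 18121 genes tested. The largest falls were those of the cortex keratins Krt33a, by 4.04 (adjusted p = 0.00203 from limma), and Krt31, by 4.01 (adjusted p = 0.00304), both larger in estimate than that of Krt86, a difference that was not tested. Krt33b, another cortex keratin, fell by 2.85 (adjusted p = 0.00641), and Krt35, an early keratin of the matrix and lower shaft, fell by 1.82 (adjusted p = 0.039). Krt36 fell by 0.67 (adjusted p = 0.032), with overlap of the genotypes. Krt32 at -1.05 and Krt39 at -1.54, keratins of the cuticle in human hair, did not pass (adjusted p = 0.112 and 0.0809). Nor did Krt34 and Krt40, both at -1.22 (adjusted p = 0.076 and 0.113).

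Of 7 genes of the hair cuticle, the layer in which human K82 is found, 3 were lower and none higher, Krt82 among them. Krt32, Krt39 and Krt40, counted above with the type I hair keratins, are also in this list, so it is not a separate set. Its median of -1.54 is the value of Krt39, as is that of the type I list. S100a3, a calcium-binding protein of cuticle cells, fell by 2.92 (adjusted p = 0.00304 from limma), and Padi3, a peptidylarginine deiminase that acts on hair proteins, fell by 2.19 (adjusted p = 0.0355). Padi1, an enzyme of the same family, was at -0.95 (adjusted p = 0.11). All 7 genes had every ILK-deficient array below every ILK-expressing array, as did 1.96% of tested probe sets.

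In the inner root sheath, which moulds the growing shaft, 7 of 8 keratins were lower and none was higher, with a median of -3.54. Krt27 fell most, by 3.98 (adjusted p = 0.00211 from limma), and Krt73 least of the 7, by 2.53 (adjusted p = 0.00779), with Krt25, Krt26, Krt28, Krt71 and Krt72 between them. Krt74 at -0.63 did not pass (adjusted p = 0.149 from limma). Of 14 type II keratins of other layers, 13 were tested, and only Krt75 was lower and none higher, with a median of -0.08. Krt6b, a keratin of stressed epidermis and of the follicle, was at 1.36 (adjusted p = 0.112). Krt2 was under the limit for testing.

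Of 11 transcription factors and other regulators of the hair matrix, 1 was lower and none higher, with a median of -0.14. Dlx3, a homeobox factor of the matrix, fell by 0.80 (adjusted p = 0.0332 from limma). Hoxc13, a homeobox factor that binds hair keratin promoters, was at -0.69 (adjusted p = 0.287), with overlap of the genotypes. Msx2, a homeobox factor of the matrix, was at -0.92 (adjusted p = 0.0955) without overlap. Foxn1, needed for hair keratinisation, was at -0.11 (adjusted p = 0.865), and Lef1, the nuclear partner of beta-catenin in the matrix, at 0.07 (adjusted p = 0.944).

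**Figure D3:**
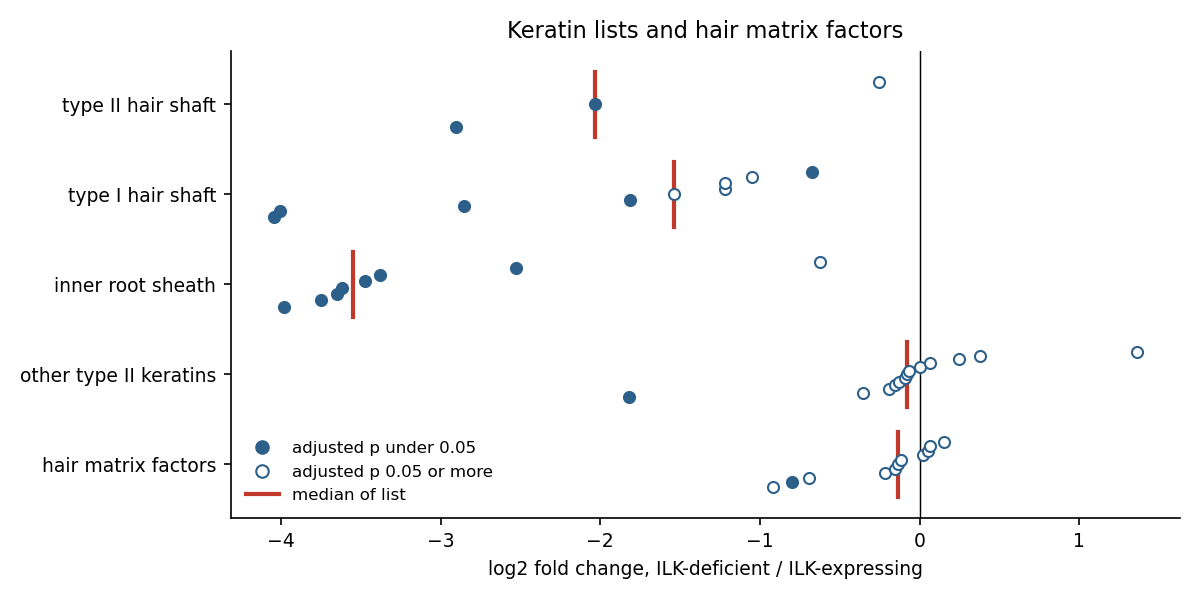
Log2 fold changes (horizontal axis) of the genes of 5 lists, 1 point per gene, filled at an adjusted p under 0.05 from limma, with a bar at the median of each list. The medians are -2.03 for type II and -1.54 for type I hair shaft keratins and -3.54 for inner root sheath keratins, while those of the other type II keratins and of the matrix factors are -0.08 and -0.14.

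The ILK-expressing arrays differed among themselves in hair keratins far more than in most transcripts. The SD between ILK-expressing arrays was 1.59 for Krt86 and 1.20 for Krt82, where the median over all tested probe sets was 0.161. Between ILK-deficient arrays it was 0.186 for Krt86 and 0.126 for Krt82, near the median of 0.133. The SD was larger in ILK-expressing arrays for all 3 type II hair keratins, for all 9 type I and for 7 of 8 inner root sheath keratins, as it was for 62.5% of all tested probe sets.

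Replicates 4 and 5 were the highest ILK-expressing arrays for 3 of 3 type II hair keratins, 8 of 9 type I hair keratins and 7 of 8 inner root sheath keratins, which was so for 10.4% of all tested probe sets. These are the arrays with the letters D' and C'. Against the mean of the 3 ILK-expressing arrays with D, their mean was higher by 2.75 for Krt86, 1.95 for Krt82 and 0.45 for Krt84 on the log2 scale. The median of the same difference was 1.65 over type I hair keratins, 1.46 over inner root sheath keratins and -0.05 over 6 keratinocyte markers. Replicate 4 was the highest for all 3 type II genes. Below the top 2 arrays the order differed, since replicate 1 was the lowest for Krt86 and Krt84 and replicate 3 for Krt82.

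**Figure D4:**
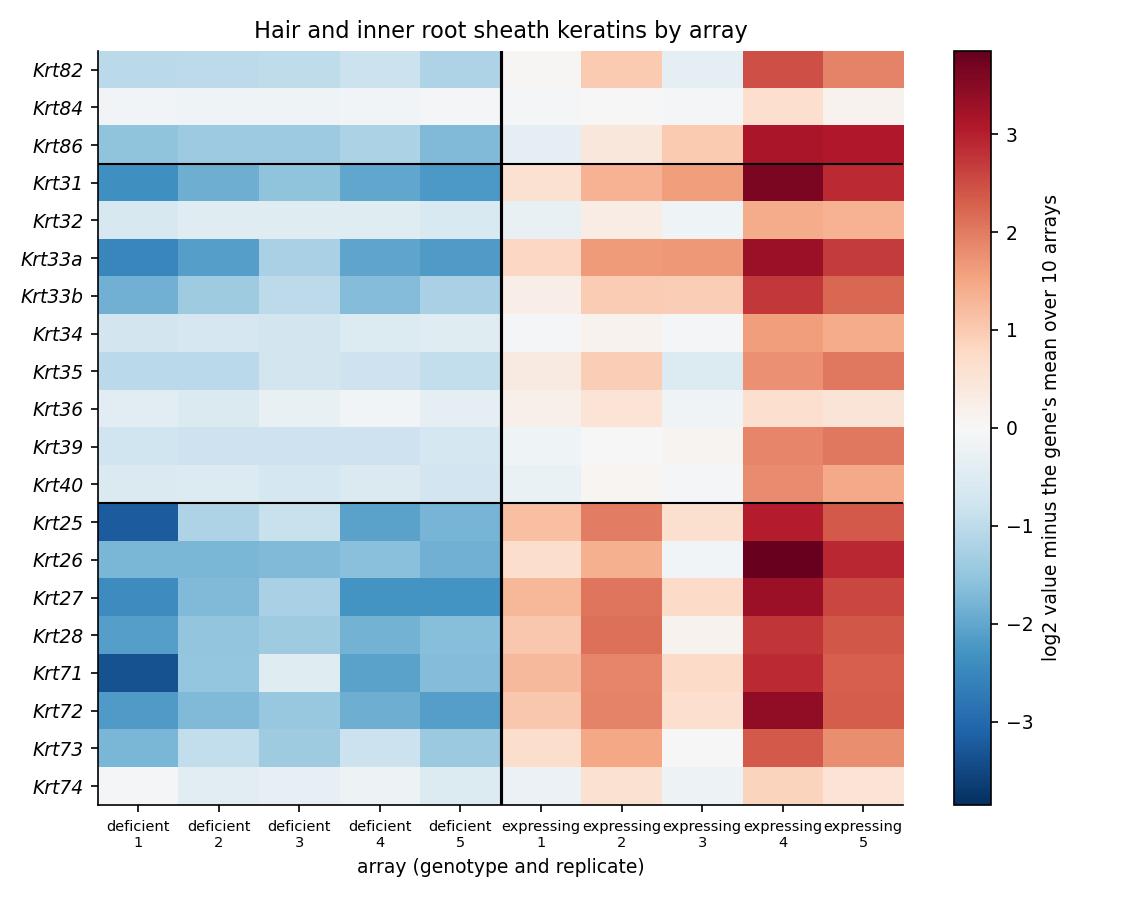
Log2 value minus the mean of each gene over the 10 arrays (colour) for 3 type II hair keratins, 9 type I hair keratins and 8 inner root sheath keratins (rows, separated by lines) on ILK-deficient (left) and ILK-expressing (right) arrays. ILK-expressing replicates 4 and 5 are the reddest columns, at 3.13 and 3.08 for Krt86, and the row of Krt84 is pale except in replicate 4.

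The genes whose profile over the 10 arrays was nearest to the median profile of the 3 members included an enzyme, a keratin-associated protein and a relative of trichohyalin from hair. Likeness was measured as the root mean square difference of the log2 values, each gene centred on its own mean, and is a description with no test. It was 0.181 for AU018091, 0.208 for Gm10229, 0.214 for Padi3, 0.235 for Mc5r, a melanocortin receptor of sebaceous glands, 0.247 for Krtap26-1, a keratin-associated protein, 0.255 for Tchhl1, a relative of trichohyalin, 0.265 for Psors1c2 and 0.266 for Ly6g6d. The median profile itself had a root mean square of 1.23. On all ILK-deficient arrays and on ILK-expressing replicates 4 and 5, this median was the value of Krt82. Nearness to the median profile is thus largely nearness to Krt82. Nearest to Krt86 alone was Krtap13-1, another keratin-associated protein, at 0.299, and nearest to Krt82 was AU018091 at 0.183. Nearest to Krt84 was Trpm6, a magnesium channel, at 0.0717, but the profile of Krt84 was nearly flat, with a root mean square of 0.233.

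Markers of the cell types in the samples were set beside these falls. Of 5 hair shaft markers, of which Padi3 and Hoxc13 were also given with other lists, 3 were lower and none higher, and their summed linear value was 660.3 to 778.7 in ILK-deficient and 1782 to 9530 in ILK-expressing arrays. Of 5 markers of the follicle epithelium, 3 were higher (Krt17, Sox9 and Lhx2) and 1, Krt75, was lower. Of 6 keratinocyte markers, Trp63 was higher and Krt14 lower, and the sums overlapped, at 63100 to 66830 in ILK-deficient and 62820 to 70640 in ILK-expressing arrays. Of 5 melanocyte markers, 3 were higher and none lower, with sums of 5833 to 11810 in ILK-deficient and 1268 to 3853 in ILK-expressing arrays. Dermal fibroblast markers summed to 3598 to 6623 in ILK-deficient and 1537 to 5503 in ILK-expressing arrays. None of 6 dermal fibroblast, 5 leukocyte, 3 endothelial, 3 fat cell or 2 tested muscle markers was called. The part of these markers in the falls of the hair keratins was not tested.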

How the data were processed

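The authors hybridised RNA of 10 mice to GeneChip arrays and deposited 1 log2 value per probe set and array, after background adjustment, quantile normalization and summarisation. The submitters' processing notes name RMA, while the methods mention both GC-RMA and RMA Express without saying which made this table. The genome build of the probe sets is not given in the sources used here. The genotypes were taken from the sample titles.

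Members, gene lists and tests were chosen with earlier results of these data known. Probe sets were named from the platform annotation, and of several with the same single symbol that with the highest mean was used. Genotypes were compared in R 4.3.3 with limma 3.58.1 (lmFit, eBayes, no covariate), with Benjamini-Hochberg adjustment over 32046 probe sets and a threshold of 0.05. Single genes and pairs of genes were also compared by exact permutation tests. Of the pairs planned among 6 members, only 3 could be formed. The fit was tested on simulated arrays. By rule, the members, any keratin of the hair and inner root sheath lists, and the genes of nearest profile could be named. Of other lists, up to 4 called and 2 uncalled genes could be named, by size of log2 fold change. Krt5, Krt7, Krt87, Krt88, Krt90, Krt2, Foxn1 and Lef1 fall outside this rule and were chosen after their values were seen. Padi1 and Ilk also fall outside it. Sequences are those of RefSeq for GRCm38.p6. The alternatives changed the filter, scaling, test, block, probe sets or arrays. Replicates are separate mice, 5 per genotype, which limits the precision.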

Additional observations from a re-analysis of the deposited data

Results flagged for a closer look

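Krt84 in ILK-expressing replicate 4 lay far above the other ILK-expressing arrays, at 6.59 on the log2 scale, while these were at 5.86 to 6.07. About 1 group in 20 has such an array by chance, and both genotypes of Krt86, Krt82 and Krt84 were looked at. The gap below it was 0.717 of the range of its group, just above the limit of 0.71 for such a flag. Without ILK-expressing replicate 4 the log2 fold change of Krt84 was -0.12 (adjusted p = 0.477 from limma), against -0.25 with it. The same array had the highest value of Krt86 and Krt82.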

How the results depend on the processing

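The direction of Krt86, Krt82 and Krt84 held under every alternative run. There were 21 for the first 2 genes and 20 for Krt84, which the stricter filter of 100 left out. Where arrays were left out or weighted this was fixed in advance, because the genotypes did not overlap. Changes of filter, the methods' ANOVA and the replicate block left the log2 fold changes as they were. Krt82, with a log2 fold change of -2.03, lost its call with the description letter as a block (-1.76), with array weights (-1.74), among the arrays with the letter D (-1.21), and in the methods' ANOVA and with the replicate number as a block (-2.03 each, adjusted p = 0.105 and 0.0673). Krt86 lost its call in both of these last fits (-2.90 each, adjusted p = 0.086 and 0.0574). Of the 3 genes, 1 was then called lower with the letter as a block, with array weights and among arrays with D. In both the methods' ANOVA and the replicate block 0 were called, although 2 of the 3 had an unadjusted p under 0.05. The methods themselves call probe sets by fold change and a p-value under 0.05 and name no adjustment. ANOVA counts given here are adjusted, so they are not those of the authors' rule. Leaving out 1 array gave 0 to 2 called genes, log2 fold changes of -3.36 to -2.48 for Krt86, -2.37 to -1.67 for Krt82 and -0.30 to -0.12 for Krt84, differences of 0.64 to 1.12 between Krt82 and Krt86, and 597 to 1010 called probe sets. Of all probe sets, 1211 were called, but 686 in the methods' ANOVA, 608 with the replicate block and 294 among arrays with D. Same-numbered arrays did not deviate together (correlations of -0.30 to 0.11). The labels do not say whether the numbers pair the mice, and these correlations cannot decide it. No probe set listed a member among several symbols, so that alternative gave no value. The cause of these changes was not tested, but leaving out arrays also leaves fewer to estimate the spread. Values near the lower limit, as for Krt84, limit what difference can be seen.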
